A study of Mus musculus with 10 samples.

Results

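In mouse embryonic stem cells, 395 autosomal H3K4me3 islands overlapped an H3K27me3 island after deletion of BAF250a (KO) but not in control cells (WT). Islands are intervals enriched for a mark over input. Each of the 395 was taken from the KO H3K4me3 list. It overlapped by 1 bp or more an island of the KO H3K27me3 list and one of the WT H3K4me3 list, and no island of the WT H3K27me3 list. They were 395 of 40978 KO H3K4me3 islands in all, of which 6.78% overlapped KO H3K27me3. Among the 20661 autosomal islands with H3K4me3 in both genotypes and no WT H3K27me3, here called eligible islands, they made up 1.91%. The islands were chosen by these calls, that is, by the deposited adjusted p-values of the 4 lists, so the presence of H3K27me3 in KO and its absence in WT are not results. A place without a WT island has no WT read count, so a gain of H3K27me3 as a level was not measured. The islands are therefore described as having H3K27me3 in KO alone.

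The cells were embryonic stem cells of a mixed 129/C57BL/6 background, kept with LIF and serum on embryonic fibroblast feeders. KO cells had been given 1 µM 4-hydroxytamoxifen for 36 hours from 4 hours after passage. WT cells received ethanol at the same times, and the effects of genotype and drug cannot be told apart. The labels used here do not give the recombinase, the number of clones, or whether feeder cells were removed. There was 1 ChIP library per genotype and mark and 1 input per genotype, so no p-value between genotypes was computed and every comparison is between these libraries. The 4 lists held 9565481 (WT) and 13512350 (KO) H3K4me3 reads, and 1140878 (WT) and 839422 (KO) H3K27me3 reads. All intervals given are 95% intervals of counting error, and those for shares and medians treat islands as independent draws. Gene annotation of the build was not used here, so no genes or stem cell markers were assigned to the islands and the deleted gene was not examined.

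H3K4me3 is laid down at active and poised promoters by COMPASS-type methyltransferases of the Trithorax group, and H3K27me3 by EZH2 and EZH1 in Polycomb repressive complex 2. In embryonic stem cells many CpG-rich promoters of developmental regulators carry both marks, a state called bivalent. BAF250a, encoded by Arid1a, is a DNA-binding subunit of the BAF (SWI/SNF) remodelling complex, which slides or ejects nucleosomes and is known to oppose Polycomb complexes on chromatin.

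H3K27me3 at the 395 islands was weak in the KO library. They held a median of 75 H3K27me3 reads (range 24 to 1456), a fold over input of 1.74 (range 1.16 to 8.35) and 19.2 reads per kb. The 1849 autosomal islands with H3K4me3 and H3K27me3 in both genotypes had medians of 135 reads, 2.16-fold and 22.1 reads per kb. A fold of 2 or more was reached by 132 of the 395 islands (33.4%, 28.8 to 38.3%) and by 1094 of the 1849 (59.2%, 56.9 to 61.4%). The deposited adjusted p was at or under 1e-05 at 235 and 1573 of them. When counting error of the input was included, the interval of the fold spanned 1 at 84 of the 395 (21.3%) and at 118 of the 1849 (6.38%). KO H3K27me3 calls were used to choose both classes, and the 1849 also had to have a WT H3K27me3 call. The classes were thus not chosen alike, and a difference in KO H3K27me3 between them may come from the choice. The H3K27me3 values are given as a description.

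**Figure D1:**
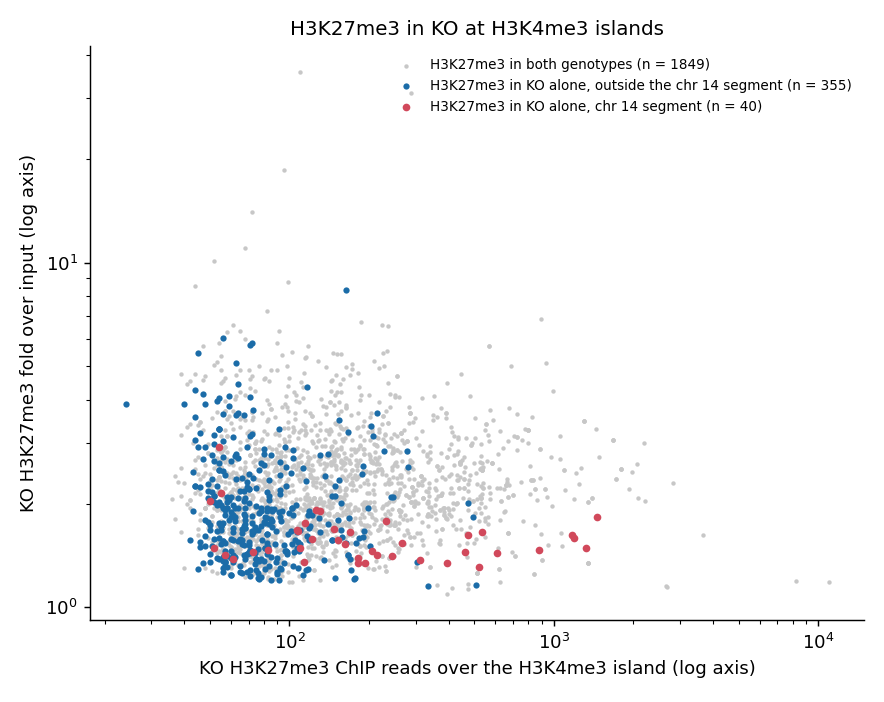
KO H3K27me3 reads (x, log axis) against KO H3K27me3 fold over input (y, log axis) for H3K4me3 islands, 1 point per island, summed over the H3K27me3 islands that overlap it. Most of the 395 islands with H3K27me3 in KO alone lie at the low end of both axes, with medians of 75 reads and 1.74-fold, and the red points of a chromosome 14 segment reach 1456 reads at low fold.

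The strongest folds of single KO H3K27me3 islands rested on few input reads. The highest was at chromosome 7, 69479001 to 69481000, where a KO H3K27me3 island of 9 kb held 163 ChIP and 19 input reads, 8.35-fold (5.18 to 14.2). It covered 10% of the H3K4me3 island, and a WT H3K27me3 island lay 1.6 kb away. At chromosome 9, 77502601 to 77504200, a KO island of 2.2 kb held 50 ChIP and 8 input reads, 6.08-fold (2.86 to 14.9), and the nearest WT H3K27me3 island was 198.2 kb away. A second KO island there brought the summed value to 103 reads and 2.87-fold. At chromosome 13, 108221601 to 108223200, the values were 56 and 9 reads and 6.06-fold (2.97 to 13.9), 3 kb from WT H3K27me3. The islands at chromosome 5, 9264401 to 9267600, and chromosome 12, 120473801 to 120478600, had 5.84-fold (3.15 to 11.8) and 5.76-fold (3.10 to 11.7), at 15.8 and 174.2 kb. The 5 intervals overlap, so these islands cannot be ranked among themselves.

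At the other end, the KO H3K27me3 island with fewest reads lay at chromosome 15, 35093801 to 35094400, with 24 ChIP and 6 input reads, 3.89-fold (1.55 to 11.6). The next 4 held 39 to 42 reads, at chromosome 6 (142910601 to 142912000), chromosome 14 (52361201 to 52362600), chromosome 2 (180867001 to 180868800) and chromosome 6 (48547201 to 48549200). Their folds ran from 1.57 to 3.89. The adjusted p nearest to the limit of 0.05 was 0.0487, at chromosome 11, 58027801 to 58030600, where 77 ChIP and 62 input reads gave 1.21-fold.

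H3K27me3 lay over part of most of these islands. The median share of the H3K4me3 island under KO H3K27me3 was 45.2% (42.4 to 50%), against 60% (58.3 to 62.5%) where both genotypes had H3K27me3. The whole island was covered in 81 of 395 (20.5%) and in 489 of 1849 (26.4%). With 1 H3K27me3 island present, the centres of the marks were a median of 2000 bp apart in the first class and 2200 bp in the second. At the limits of the rule, 28 of the 395 overlapped KO H3K27me3 by a single 200 bp window, and 41 eligible islands without KO H3K27me3 lay within 200 bp of one. On the WT side, 11 of the 395 directly abutted a WT H3K27me3 island, and 18 of the 1849 overlapped one by 200 bp. At 13 of the 395 (3.29%), the matching WT H3K4me3 island did overlap WT H3K27me3, outside the KO H3K4me3 island. The 395 islands lay under 419 KO H3K27me3 islands, 9 of which covered more than 1 of them, so 18 of the 395 shared an H3K27me3 island.

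Islands near H3K27me3 of WT cells had KO H3K27me3 more often. Among eligible islands with a WT H3K27me3 island within 1 kb, 45 of 187 had H3K27me3 in KO (24.1%, 18.1 to 30.8%). The share was 12.2% (9.29 to 15.6%) at 1 to 5 kb, 4.64% (3.57 to 5.92%) at 5 to 20 kb, or 3.03% (2.16 to 4.12%) without the chromosome 14 segment described further on, and 1.57% (1.26 to 1.94%) at 20 to 100 kb. Beyond that it was 1.08% (0.889 to 1.30%) up to 500 kb and 1.29% (0.917 to 1.75%) farther away. In all, 99 of the 395 islands (25.1%, 20.9 to 29.6%) were within 5 kb of WT H3K27me3, against 2.62% (2.40 to 2.85%) of the 20266 eligible islands without H3K27me3 in KO. At 66 of the 395 (16.7%, 13.2 to 20.8%), the KO H3K27me3 island also overlapped a WT H3K27me3 island outside the H3K4me3 island. Whether H3K27me3 had extended from the place marked in WT was not tested. At the remaining 329, no overlapping KO H3K27me3 island touched a WT one.

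**Figure D2:**
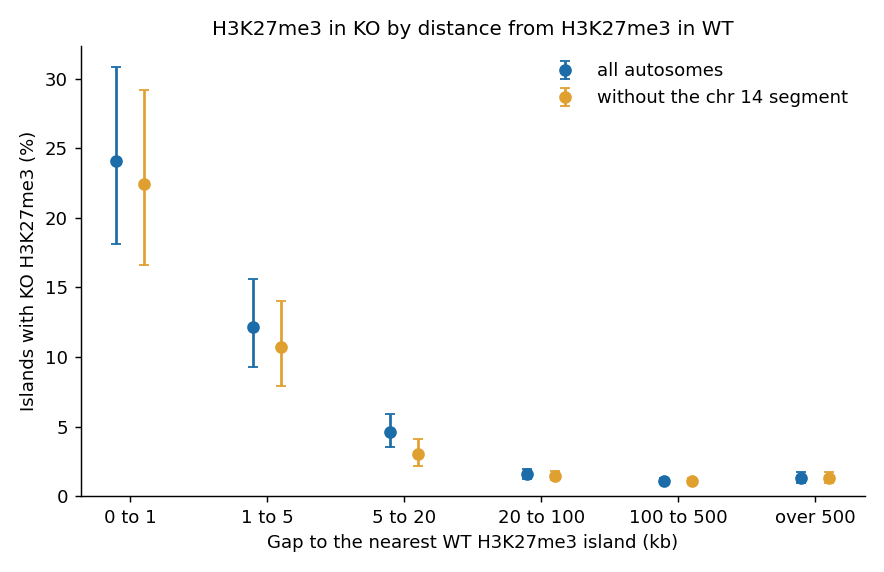
Share of eligible H3K4me3 islands with H3K27me3 in KO (y, percent) by the gap to the nearest WT H3K27me3 island (x, kb), with 95% exact binomial intervals, for all autosomes and without the chromosome 14 segment. The share is 24.1% within 1 kb and 1.08 to 1.57% from 20 kb outward.

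Outside the chromosome 14 segment, 54 islands joined to WT H3K27me3 in this way had a median KO H3K27me3 fold of 1.99 (1.83 to 2.32), 34 others within 5 kb had 1.77 (1.55 to 1.95), and 267 farther away had 1.75 (1.68 to 1.84). The neighbouring intervals overlap. The joined islands had fewer H3K4me3 reads in KO, a median of 152 (112 to 179), than the islands farther away, with 216 (193 to 244). They were also shorter, 2500 against 3200 bp, and per kb the medians were 70.0 and 69.1 reads. Outside the segment, the KO H3K27me3 islands with most reads, chosen after their values were seen, were long and mostly of low fold. At chromosome 17, 35553401 to 35576600, 507 ChIP and 424 input reads gave 1.16-fold, and at chromosome 7, 150624601 to 150645000, 474 and 230 reads gave 2.01-fold. Both also overlapped a WT H3K27me3 island. At chromosome 3, 96136801 to 96150000, 335 and 282 reads gave 1.16-fold with an interval of 0.984 to 1.36.

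A single segment of chromosome 14, taken as the islands that end at or before 10 Mb, held 40 of the 395 islands. The first of these 40 began at position 3048601 and the last ended at 8492600. Of the segment's 70 eligible islands 57.1% (44.7 to 68.9%) had H3K27me3 in KO, against 1.72% (1.55 to 1.91%) of eligible islands elsewhere. The centres of the 40 were a median of 133.8 kb apart (41.2 to 365.6 kb). Their H3K27me3 was long, with a median of 176 reads, but of low fold, 1.51 (1.45 to 1.62). The 5 KO H3K27me3 islands with most reads over any of the 395 were all here. The leading one, at 7260001 to 7301400, spanned 41.4 kb with 1306 ChIP and 693 input reads, 1.83-fold (1.67 to 2.01). The other 4, of 30.6 to 39.8 kb, held 877 to 1203 reads at 1.46 to 1.62-fold. H3K27me3 was called over 1041 kb of the segment in WT (268 islands) and 2855 kb in KO (406 islands), with pooled folds of 1.81 and 1.64. Input reads per kb in these islands numbered 9.28 (WT) and 14.2 (KO), against 8.33 and 11.4 over all H3K27me3 islands. The same input libraries gave 19.3 and 16.9 reads per kb in the segment's H3K4me3 islands, against 12.7 and 12.04 over all H3K4me3 islands. The part of this input density in the calls was not tested. The segment was singled out after its values were seen.

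**Figure D3:**
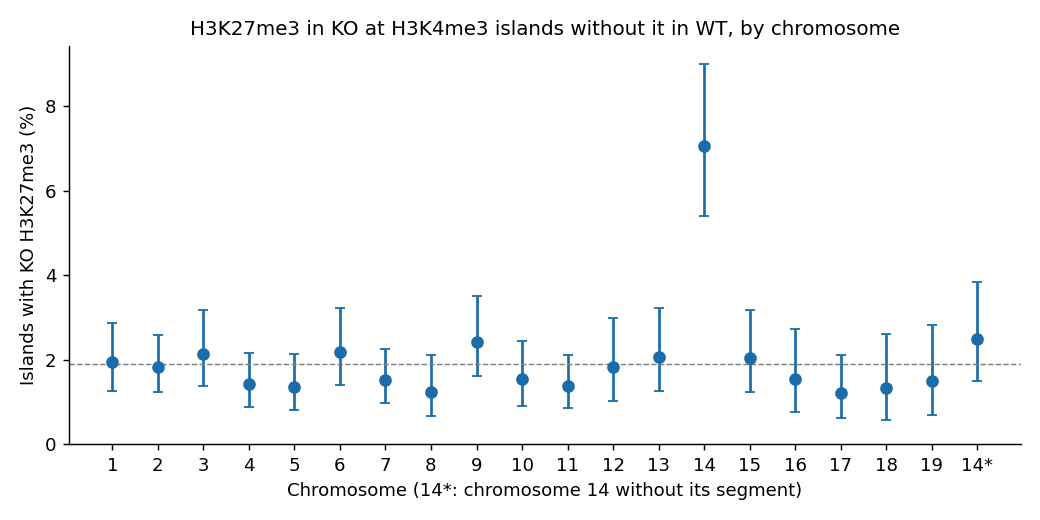
Share of eligible H3K4me3 islands with H3K27me3 in KO (y, percent) on each autosome (x), with 95% exact binomial intervals, the dashed line marking 1.91% over all autosomes. Chromosome 14 stands at 7.06% and, without its segment (14*), at 2.48%, while the other 18 lie between 1.21 and 2.43%.

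On the other autosomes the share ran from 1.21% (0.628 to 2.11%) on chromosome 17 to 2.43% (1.61 to 3.52%) on chromosome 9, and these intervals overlap. Chromosome 14 without the segment had 19 of 766 (2.48%, 1.5 to 3.85%). With the rest of the autosomes divided into fixed bins of 5 Mb, no bin held more than 5 of the islands.

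The islands with H3K27me3 in KO alone had moderate H3K4me3 in WT cells. Their median WT fold over input was 2.20, against 2.41 at islands with H3K27me3 in both genotypes and 3.21 at eligible islands with H3K27me3 in neither. By WT H3K4me3 reads per kb, which do not use input, the order of the first 2 classes was the other way, with 67.9 (63.8 to 71.7) at the 395, 59.6 (58.6 to 61.0) with H3K27me3 in both genotypes and 74.7 with it in neither. The median WT length was 3 kb, against 3.4 kb in both other classes. With all 23380 islands that had H3K4me3 in both genotypes ranked by WT fold in 5 equal parts, H3K27me3 in KO was present at 3.40% (2.85 to 4.01%) of eligible islands in the lowest part and at 0.493% (0.309 to 0.745%) in the highest. The parts between had 2.65, 2.00 and 1.24%. WT H3K27me3 itself followed a related course, at 15.0% of islands in the lowest part, 15.2% in the second and 4.53% in the highest.

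Fold divides by input, and the WT input moved with this result. Ranked by WT H3K4me3 reads per kb, the share was highest in the middle part, 2.89% (2.39 to 3.46%), with 1.42% in the lowest and 0.646% (0.433 to 0.927%) in the highest. Without the chromosome 14 segment the second and the third part had 2.54 and 2.49%. Ranked by WT input per kb, it went from 0.923% (0.660 to 1.25%) in the lowest part and 0.789% in the next to 4.29% (3.68 to 4.95%) in the highest, or 3.42% without the chromosome 14 segment. The same input reads were the control for calling WT H3K27me3. The median WT input was 16.2 reads per kb at the 395 islands, 13.9 at islands with H3K27me3 in both genotypes and 12.5 at eligible islands with it in neither. KO input had medians of 13.2, 12.9 and 11.9. KO input relative to WT, per kb, had a median log2 ratio of −0.28 (−0.34 to −0.24) at the 395 and −0.10 (−0.10 to −0.09) over all 22295 shared autosomal regions. The part of WT input in the absence of a WT H3K27me3 call was not tested.

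**Figure D4:**
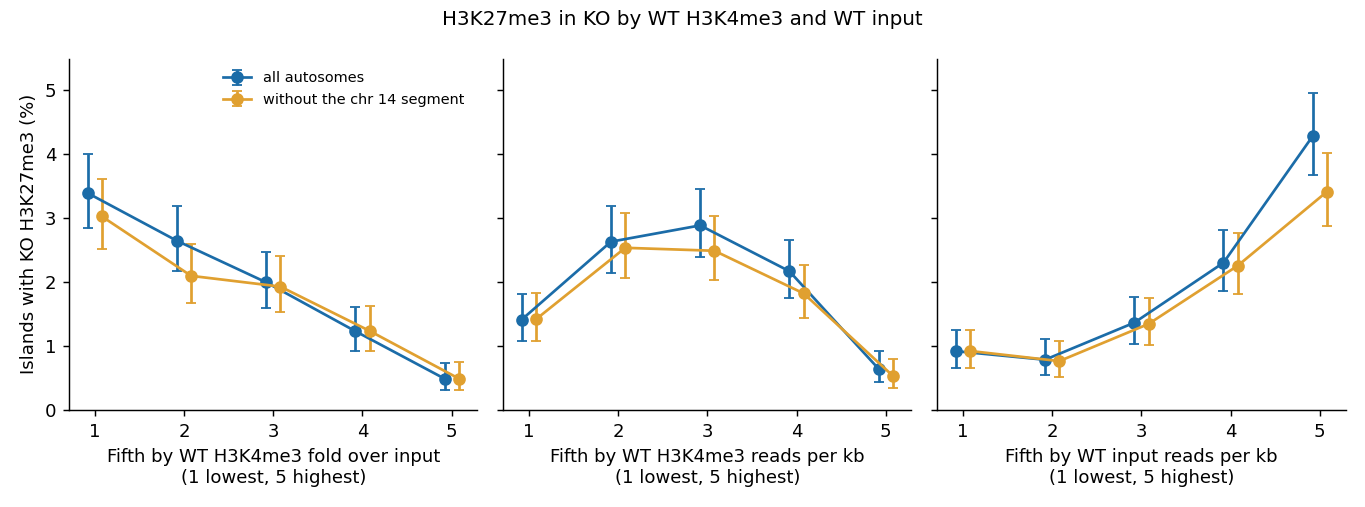
Share of eligible H3K4me3 islands with H3K27me3 in KO (y, percent) in 5 equal parts of all islands with H3K4me3 in both genotypes (x, 1 lowest to 5 highest), ranked by WT H3K4me3 fold, WT H3K4me3 reads per kb and WT input per kb, with 95% exact binomial intervals, for all autosomes (blue) and without the chromosome 14 segment (orange). The share goes down with fold (3.40 to 0.493%), peaks in the middle for reads per kb (2.89%) and goes up with input (0.923 to 4.29%).

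The relation to distance was present at both levels of WT input. Eligible islands were divided at the median input of 12.5 reads per kb. At lower input, 9.59% (6.47 to 13.6%) had KO H3K27me3 within 5 kb of WT H3K27me3 and 0.539% (0.378 to 0.745%) beyond 100 kb. At higher input the shares were 21.0% (16.8 to 25.7%) and 1.72% (1.42 to 2.06%).

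H3K4me3 fold over input was higher in KO at most of the islands, as it was at shared H3K4me3 regions in general. WT and KO islands that touch were merged, which gave 385 regions holding the 395 islands. Of these, 12 also held WT H3K27me3 outside the 395 islands, and without them the medians given next stayed within their intervals. Their pooled fold was 2.71 in WT and 4.18 in KO, and 353 of 385 (91.7%, 88.5 to 94.2%) were higher in KO, against 91.4% of all 22295 shared autosomal regions. On the log2 scale, KO fold relative to WT had a median of 0.73 (0.67 to 0.78), beside 0.66 (0.65 to 0.66) over all shared regions and 0.62 (0.59 to 0.64) where both genotypes had H3K27me3. These fold ratios contain the lower KO input given above. Without input, the pooled, unscaled H3K4me3 density of these regions was 79.8 in WT and 77.8 in KO, in reads per kb. It was 95.9 and 102.9 over all shared regions, and 72.7 and 77.9 where both genotypes had H3K27me3.

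**Figure D5:**
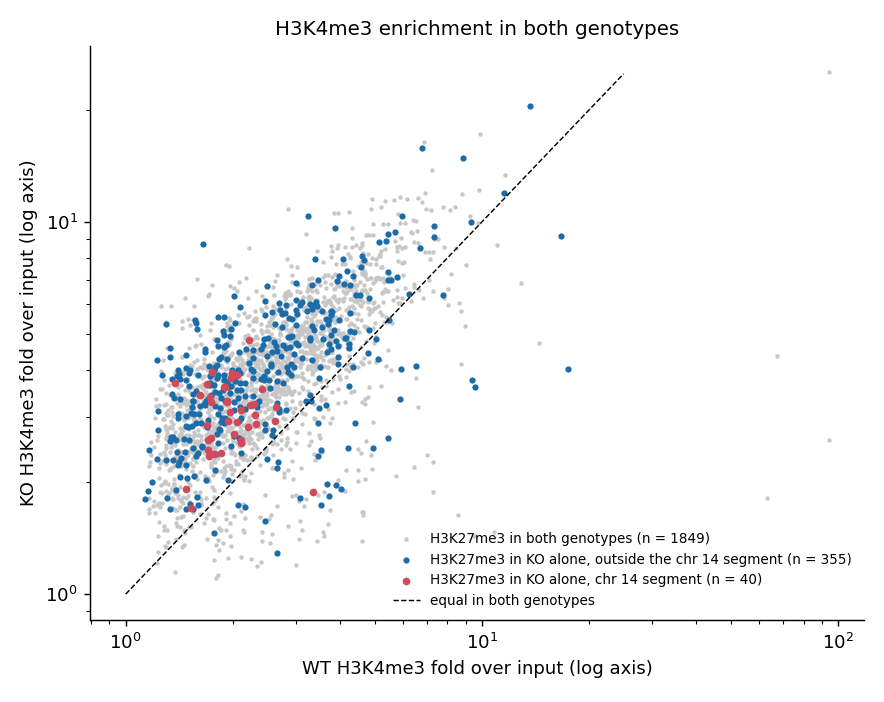
H3K4me3 fold over input in WT (x, log axis) and KO (y, log axis), 1 point per KO H3K4me3 island, with the dashed line at equal fold. Most points of each class lie above the line, and in 353 of 385 merged regions with H3K27me3 in KO alone the fold was higher in KO.

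Relative to other H3K4me3 regions, H3K4me3 reads at these places were lower in KO. After division by the total over all shared regions, the median log2 KO over WT ratio was −0.22 (−0.27 to −0.14), against 0.04 (0.03 to 0.05) over all shared regions and 0.06 where neither genotype had H3K27me3. Islands with H3K27me3 in both genotypes had −0.16 (−0.18 to −0.14), and those with it in WT alone −0.02 (−0.05 to 0.01). The interval of the ratio lay below 1 in 176 of 385 regions (45.7%, 40.7 to 50.8%), against 24.9% of all shared regions, and above 1 in 52 (13.5%), against 28.8%. Called length, which is set by the same reads, also differed, and its part in the read difference was not tested. Islands were longer in KO in 232 of 385 regions (60.3%, 55.2 to 65.2%), against 72.0% of all shared regions. Per kb of called length, with a scaling other than by the read total, the median was −0.059 (−0.091 to −0.012). Unscaled, the log2 per kb medians were 0.04 (0.01 to 0.09) here and 0.12 (0.10 to 0.13) with H3K27me3 in both genotypes. They were 0.15 (0.12 to 0.17) with it in WT alone and 0.17 (0.17 to 0.18) with it in neither. Without the chromosome 14 segment, the median log2 ratio of scaled reads per region was −0.18 (−0.26 to −0.10).

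The ratio depended on the number of WT reads, and was compared within levels of it. With 200 or more but below 500 WT reads, the median log2 scaled ratio was −0.29 (−0.37 to −0.24) in 136 regions with H3K27me3 in KO alone, −0.27 (−0.31 to −0.22) with it in both genotypes and −0.03 (−0.04 to −0.01) with it in neither. With 100 or more but below 200 reads the values were −0.08 (−0.22 to −0.04), −0.06 and 0.19 (0.17 to 0.22). From 20 to below 100 they were 0.14 (0.02 to 0.30), 0.19 and 0.43 (0.42 to 0.44). At 500 or more they were −0.45 (−0.54 to −0.29), −0.30 and −0.08. In each level the regions with KO H3K27me3 had lower medians than those with no H3K27me3. The intervals of the class in KO alone and the class in both genotypes overlapped in all 4 levels.

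Single regions went both ways. The lowest scaled ratio, log2 −2.94 (−3.34 to −2.56), was at chromosome 2, 65682601 to 65687400, where a WT island of 4.8 kb with 379 reads faced a KO island of 1.4 kb with 65 reads. Its H3K4me3 fold was 5.92 in WT and 4.03 in KO, and a KO H3K27me3 island with 78 reads at 1.90-fold covered 86% of the KO H3K4me3 island. At chromosome 9, 39409601 to 39413200, H3K4me3 went from 209 to 112 reads and from 3.67 to 1.98-fold, under a KO H3K27me3 island of 8 kb with 148 reads at 2.25-fold. The folds in WT and KO were 2.57 and 2.68 at chromosome 19, 16509401 to 16513000 (log2 −1.49), and 3.29 and 3.43 at chromosome 16, 36693001 to 36696800 (−1.38). A region of chromosome 14, 49271001 to 49296000, held 2452 WT and 1355 KO reads (−1.25) with folds of 3.50 and 3.40. One long WT H3K4me3 island there faced 5 KO islands, of which 2 had H3K27me3 in KO alone and 3 in both genotypes, so this region is not one of KO H3K27me3 alone.

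The highest scaled ratios were at regions where the KO island was longer. At chromosome 6, 85074201 to 85078200, H3K4me3 went from 59 reads over 1.4 kb to 205 over 4 kb, log2 1.40 (0.98 to 1.85), and from 1.58 to 2.87-fold. KO H3K27me3 there was 1.28-fold with 75 reads. The next 4, at chromosome 5 (128937801 to 128940000), chromosome 19 (10376401 to 10380400), chromosome 4 (63704601 to 63709000) and chromosome 12 (82098801 to 82101000), had log2 ratios of 1.07 to 1.09. KO H3K27me3 at these 4 was 1.32 to 1.68-fold, with 50 to 65 reads.

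The strongest H3K4me3 islands of the class carried H3K27me3 over a small part. The leading one, at chromosome 16, 30058401 to 30072400, held 1751 KO and 1558 WT reads, 5.83 and 3.33-fold over input. Its KO H3K27me3 island of 4 kb had 86 reads at 1.90-fold, covered 9% of its length and also overlapped a WT H3K27me3 island. WT H3K27me3 abutted the H3K4me3 island. At chromosome 8, 35867201 to 35880000, H3K4me3 reads were 1538 in WT and 1281 in KO and 28% was covered. At chromosome 11, 101111001 to 101127800, they were 935 and 1247, with 13% covered. At chromosome 3, 148646401 to 148655000, they were 1413 and 1211, with 30% covered and the nearest WT H3K27me3 1341 kb away. At chromosome 6, 48542201 to 48555600, they were 852 and 1185, with 15% covered.

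H3K27me3 calls in WT alone were more numerous than calls in KO alone. Taken from the WT list, 879 of 23554 autosomal H3K4me3 islands with KO H3K4me3 and no KO H3K27me3 had H3K27me3 in WT (3.73%). In the other direction, 388 of 23063 with no WT H3K27me3 had it in KO (1.68%). The WT H3K27me3 list was also longer, with 8067 islands against 6833, and its ChIP library was deeper relative to input, at a depth ratio of 1.68 against 1.03. The listed island with fewest reads held 19 in WT and 22 in KO.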

How the data were processed

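H3K4me3 and H3K27me3 ChIP-seq island lists of WT and KO cells were analysed, 1 library each. The submitters' processing notes name Bowtie, SICER 1.1 and build mm9, and the deposited lists carry a 200 bp window, gaps of 200 bp (H3K4me3) and 600 bp (H3K27me3) and an FDR of 0.05. How duplicate reads were treated is not given in the sources used here. The deposited counts are ChIP and control reads per island, with a deposited p-value, its adjusted value, and a deposited fold, which equals the ratio of those counts times 1 constant per list. The KO H3K27me3 library has H2K27me3 in its title and H3K27me3 as its antibody, and was taken as the latter. Library totals are not in the lists, so depth outside islands is unknown.

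Positions are 1-based in mm9. Folds were recomputed from summed counts and the list's constant, with 0.25 for a control count of 0. Reads of WT and KO H3K4me3 islands were summed over merged regions with 20 or more reads in each and scaled by the total of all shared regions (KO over WT, 1.31). Intervals are rank-based for medians, exact binomial for shares and, for count ratios, exact binomial given the sum of both counts. PCR reads are not independent molecules, so these cover counting error only. The islands, the comparison classes and the rules were chosen with earlier results of these data known. Regions named are the 5 with most H3K27me3 reads, the 5 with highest H3K27me3 fold at 50 or more reads, the 5 with fewest H3K27me3 reads, the 5 highest and lowest H3K4me3 ratios at 50 or more reads in each genotype, and the 5 with most H3K4me3 reads; others are said to be chosen later or lie nearest a limit. Genes, promoters and sequences were not used here, because the tables at hand are of another build. Python 3.11.15, numpy 2.4.6, pandas 2.3.3, scipy 1.17.1 and matplotlib 3.10.9 were used. The code was tested on simulated data, and bedtools 2.31.1 gave the same 395 islands. Alternatives changed overlap, FDR, fold, distance, input density, chromosomes, read minimum and scaling.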

Additional observations from a re-analysis of the deposited data

How the results depend on the processing

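Over 5 results (the number of islands, the share joined to WT H3K27me3, and the median log2 H3K4me3 fold, H3K4me3 scaled reads and input per kb), 38 alternative values stayed within the interval, or within 1.5 times the count, 10 moved and none changed sign. Requiring an overlap of 50% of the smaller island raised the joined share to 38.95%, since a WT H3K27me3 island may then overlap a little, and gave 0.67 for fold and −0.23 for input. An FDR of 1e-05 in every list gave −0.28 for scaled reads. The same FDR in the KO H3K27me3 list alone left 235 islands, 20.85% of them joined. A fold of 2 or more in that list left 142, with an H3K4me3 fold of 0.80. Both shorten that list. Leaving out islands within 5 kb of WT H3K27me3 left 1.689% joined, by construction. Taken per kb of called length, with a scaling other than by the read total, the result for reads was −0.059. Leaving out the chromosome 14 segment, chosen after seeing the data, left 355 islands and moved none of the other 4 results out of its interval. Leaving out the 12 merged regions that also hold WT H3K27me3, likewise chosen after seeing the data, gave −0.21 for scaled reads. No paired analysis was possible because each genotype and mark had 1 ChIP library. The cause of the other moves was not tested. At these depths, the interval of the KO H3K27me3 fold, from ChIP and input counts, included 1 at 84 of the 395 islands. The fold was 1.5 or less at 113. No WT H3K27me3 level can be given where no island was listed.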

Other observations

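Most autosomal KO H3K27me3 islands without a WT counterpart overlapped no KO H3K4me3 island. Of 6573 autosomal KO H3K27me3 islands, 2749 overlapped no WT H3K27me3 island (41.8%, 40.6 to 43.0%). Of these, 351 lay over one of the 395 H3K4me3 islands (12.8%, 11.5 to 14.1%), 173 over other KO H3K4me3 islands (6.29%) and 2225 over none (80.9%, 79.4 to 82.4%). Those over the 395 had a median of 69 reads and 1.75-fold over input, and those over no H3K4me3 island 64 reads and 2.41-fold, both with a median length of 3800 bp. With WT H3K27me3 present, 2090 KO H3K27me3 islands lay over H3K4me3 islands with H3K27me3 in both genotypes. The same shares over all autosomal KO H3K27me3 islands are not given here. The 80.9% is therefore not shown to be particular to islands without a WT counterpart.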
